A study of Danio rerio with 7 samples.

Results

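The expression profile of sox10-positive cells from zebrafish (Danio rerio) embryos that received both a ctr9 morpholino and progesterone was compared with that of uninjected embryos kept in DMSO. The comparison rests on 4 of the 6 libraries in the deposited table, chosen by the column names, and on 13145 of 33735 genes, those with a mean of at least 1 FPKM over the 6 libraries. FPKM are fragments per kilobase of transcript, scaled by the fragments mapped in the library, and every level below is an FPKM value divided by a size factor of its library (scaled FPKM). Differences are log2 fold changes of scaled FPKM + 1, which understates the change of low genes, each with its standard error (SE) and with 2 libraries a side.

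The first group, ctr9 morphants in progesterone, holds 2 libraries (experiments 1 and 2) of embryos injected with a morpholino for ctr9 and kept in 32 µM progesterone from 50% epiboly until the stage of 15 somites. The ctr9 morphants in DMSO, also 2 libraries, had the same injection and spent the same window in the solvent DMSO, and are set beside the comparison at each step. The uninjected embryos in DMSO, 2 libraries named in the table by 5 ng and 10 ng, had no injection. All embryos were raised at 28 °C, dissociated and sorted for sox10 cells, and ribosomal RNA was removed from total RNA ahead of library preparation from low input, with paired reads of 100 bases. The morpholino's sequence and dose, a control injection, the fish strain, the sort gate and the number of embryos per library are not given in the sources used here, and the uninjected progesterone sample was not analysed here. Injection, loss of Ctr9 and progesterone therefore cannot be told apart between the 2 outer groups, and the p-values reflect no more than the spread among these libraries, which may be technical.

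Ctr9 is a scaffold subunit of the PAF1 complex, a companion of elongating RNA polymerase II needed for efficient elongation and for histone marks laid down during transcription. A morpholino pairs with an RNA and keeps it from being spliced or translated. Progesterone is a steroid that acts through nuclear and membrane receptors. Sox10 is a transcription factor of the neural crest, a migratory population that gives rise to pigment cells, glia and neurons, and of the otic placode, from which the inner ear forms. Roles named below for the p53 and amino acid responses are known chiefly from mouse and human cells.

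Sox10 RNA was present in every library, but with no unsorted library its level does not check the sort. Sox10 stood at 205 and 103 scaled FPKM in progesterone morphants, 129 and 115 in DMSO morphants and 112 and 112 in uninjected cells. The crest genes tfap2a and ednrab were at or above 97.4 and 122 in all 6 libraries. Among other crest markers, mycn lay between 82.2 and 139, sox5 between 44.7 and 102 and pax3a between 18.4 and 20.9 in all 6 libraries. Some were low or uneven: tfap2c lay between 2.85 and 4.89, and dlx2a had 55.6 and 5.17 in progesterone morphants. Foxd3, an early crest specifier, was at most 0.00160 scaled FPKM in 5 libraries and 0.548 in the 5 ng uninjected library, and fell under the level needed for testing. Both progesterone libraries differed from the other 4 in listed zeros and in small non-coding RNA. Tested genes with a mean of 1 to 5 scaled FPKM in uninjected cells were listed at 0 in 8.49% and 20.3% of cases in progesterone morphants, 1.76% and 2.25% in DMSO morphants and 0.537% and 0.705% in uninjected cells. Choosing genes by their uninjected level in itself keeps zeros few in uninjected cells. The choice treats the 2 morphant groups alike, so these shares compare evenly only between them. Small non-coding RNA genes held 20.5% and 30.3% of all FPKM in progesterone morphants and between 12.5% and 15.99% in the other 4 libraries. Across genes, log2 levels correlated at 0.760 between the progesterone libraries, 0.887 between the DMSO morphant libraries and 0.920 between the uninjected libraries. With the other 4 libraries, the progesterone library of experiment 1 correlated at between 0.817 and 0.846, above its value with its partner. That of experiment 2 correlated with them at between 0.741 and 0.758. The table gives no fragment counts, so no counting interval accompanies a level. Whether a listed 0 is an absent RNA or a failed estimate was not tested. Cox6c, a cytochrome c oxidase subunit, was among the genes listed at 0 in both progesterone libraries. What these differences contribute to the results below was not tested.

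Gene by gene, limma called 6 genes higher (0.0456% of those tested) and 3 lower (0.0228%) in progesterone morphants at an adjusted p of at most 0.05. At an unadjusted p under 0.05, 957 (7.28%) were higher and 1182 (8.99%) lower. The median difference of all tested genes was -0.10. Because so few genes passed, a second, descriptive rule is used throughout: a gene is separated where the lowest library of one group lay at least 1 above the highest of the other on the log2(scaled FPKM + 1) scale. By this rule 330 genes (2.51%) were separated higher and 534 (4.06%) lower. Of the 534, 195 were listed at 0 in both progesterone libraries and 125 in 1 of them, and 347 had a mean between 1 and 5 FPKM. Among genes with a mean of 100 FPKM or more, 43 of 379 were separated higher and 27 lower.

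These counts depended on scaling and on single libraries. With no scaling the median of all genes moved to -0.67 and with libraries scaled to equal sums to -0.41, and the separated counts became 125 higher and 1203 lower, and 173 and 887. Quantile normalization gave 361 higher and 325 lower, with 17 and 7 genes called. Leaving out the progesterone library of experiment 1 gave 953 genes called higher and 1422 called lower, and leaving out its partner gave 48 and 26, the lone library being assumed to vary like the other groups. Without either uninjected library limma called 0 genes, with 382 higher and 513 lower at an unadjusted p under 0.05 without the 5 ng library and 340 and 475 without the 10 ng library. Of the 9 genes called with all libraries, 0 were called without either uninjected library or with only the 4 libraries compared in the fit. With 2 libraries a side, the smallest two-sided p of an exact permutation test is 0.333.

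**Figure D1:**
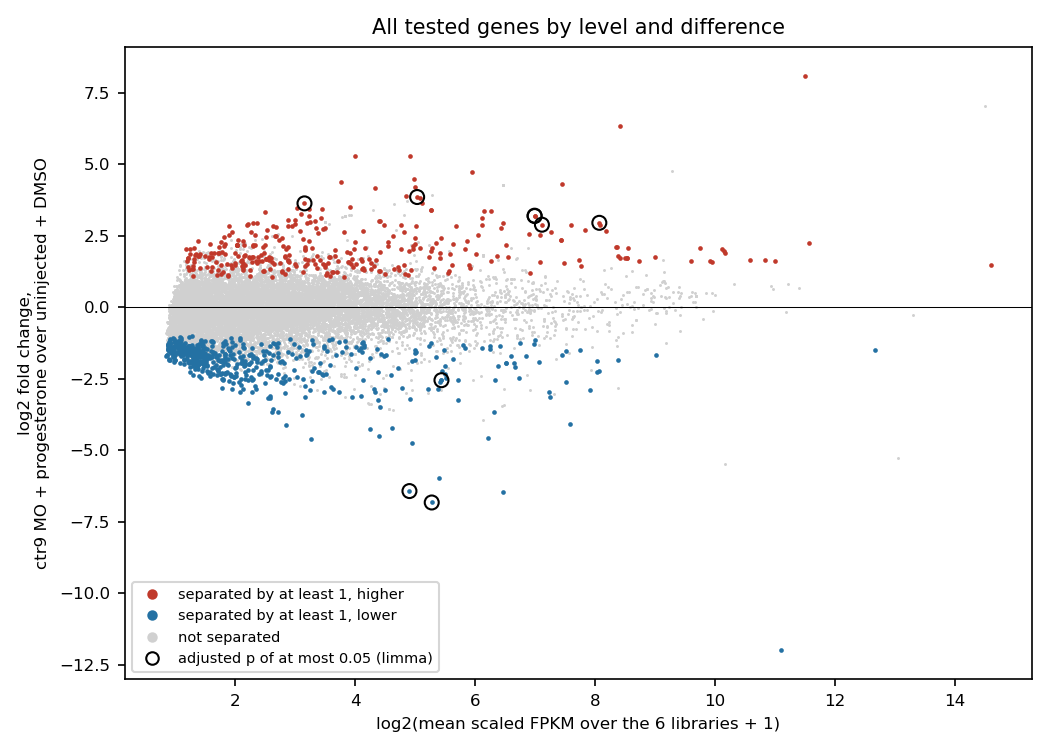
Log2 fold change of each of 13145 tested genes (ctr9 MO + progesterone over uninjected + DMSO, vertical axis) against log2 of its mean scaled FPKM over the 6 libraries + 1. Red and blue points are the 330 and 534 genes separated higher and lower, and circles mark the 9 genes with an adjusted p of at most 0.05; many of the blue points lie at the low end of the level axis.

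Igfbp1a, which encodes insulin-like growth factor binding protein 1, rose the most of the 6 genes called higher and was the 1 among them with a symbol other than a small RNA or clone name. This secreted protein binds insulin-like growth factors and limits their access to the receptor. It stood at 106 and 70.9 scaled FPKM in progesterone morphants, 1.90 and 1.69 in DMSO morphants and 4.60 and 5.62 in uninjected cells. Both progesterone libraries lay far above the other 4, and DMSO morphants were the lowest group. The difference from uninjected cells was 3.85 ± 0.30 (limma adjusted p = 0.0388), and it kept its direction in 15 of 15 alternatives, between 3.13 and 4.16, while its adjusted p passed in 7 of them and ranged between 0.0117 and 0.280. Without the 5 ng uninjected library the adjusted p was 0.262 and without the 10 ng library 0.28.

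Around igfbp1a, the insulin-like growth factor list held 13 tested genes, of which 3 were separated higher (2.51% of all genes were) and 0 lower (4.06%). The list's median difference was 0.60, against -0.10 for all genes. The growth factor gene igf2a stood at 7.88 and 26.5 in progesterone morphants, 4.21 and 10.7 in DMSO morphants and 0.313 and 0.626 scaled FPKM in uninjected cells, a difference of 3.42 ± 0.66 that did not pass (adjusted p = 0.139). For foxo3b, a transcription factor held in the cytoplasm by insulin signalling and also a member of the p53 list, the levels were 33.4 and 101 with progesterone, 15.4 and 39.6 in DMSO morphants and 4.17 and 2.47 in uninjected cells (3.81 ± 0.65, adjusted p = 0.111). Unlike igfbp1a, both were already above the uninjected range in DMSO morphants, with morpholino differences of 2.42 and 2.61 against -1.12 for igfbp1a.

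The other 8 called genes were 6 small non-coding RNA copies and 2 loci with clone names. The locus si:ch211-8i17.2 rose to 16.02 and 17.23 scaled FPKM in progesterone morphants, with 7.82 and 5.50 in DMSO morphants and 0.497 and 0.363 in uninjected cells (3.62 ± 0.32, limma adjusted p = 0.0464). The locus zgc:173552 fell to 13.6 and 10.2 in progesterone morphants, with 42.4 and 39.7 in DMSO morphants and 75.1 and 73.3 in uninjected cells (-2.56 ± 0.22, adjusted p = 0.0464). For both loci the DMSO morphants lay between the outer groups, and their own differences from uninjected cells were 2.41 and -0.84. Copies of Metazoa_SRP, the RNA of the signal recognition particle, made up 4 of the 6 higher calls, with levels between 240.3 and 688 scaled FPKM in progesterone morphants, between 69.9 and 169 in DMSO morphants and between 26.4 and 75.7 in uninjected cells and differences between 2.88 and 3.19. Copies of U6, a spliceosomal RNA, made up the other 2 lower calls, listed at 0 in all 4 morphant libraries and at 71.4 and 102 and at 107 and 119 in uninjected cells. These are near-identical multi-copy genes between which the authors' counting could split reads, so all 6 are uncertain. With small non-coding genes left out, limma called 0 genes of 12701, with 865 higher and 1150 lower at an unadjusted p under 0.05.

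**Figure D2:**
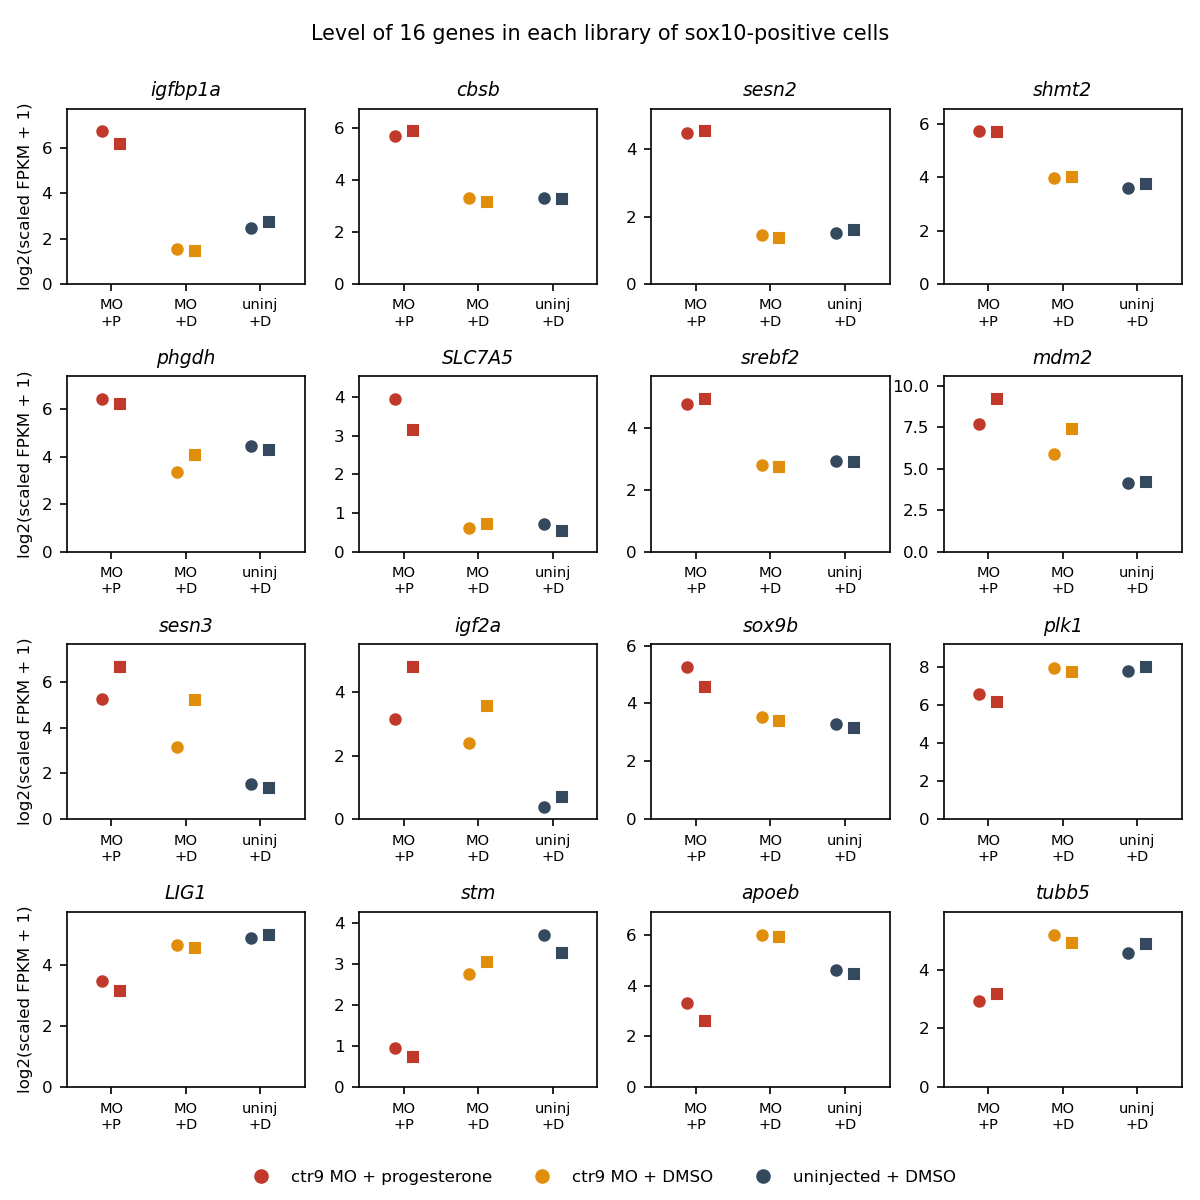
Level of 16 genes as log2(scaled FPKM + 1) in each library, with ctr9 MO + progesterone in red, ctr9 MO + DMSO in orange and uninjected + DMSO in dark blue, and circles and squares for the 2 libraries of a group (experiments 1 and 2, or 5 ng and 10 ng). Igfbp1a, cbsb, sesn2, shmt2 and srebf2 stand apart in the progesterone libraries, mdm2, sesn3 and igf2a step up over the 3 groups, and plk1, LIG1, stm, apoeb and tubb5 are lowest with progesterone.

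Genes of the p53 response, which restrain p53, stop the cell cycle or promote cell death after p53 is stabilised, had the highest median of the lists. Of 31 tested members, 13 were separated higher (2.51% of all genes were) and 1 lower (4.06%), and 26 lay above the median of all genes. The list's median difference was 1.13, and 0 members passed over all genes. At an unadjusted p under 0.05, 15 were higher (7.28% of all genes were) and 1 lower (8.99%). Mdm2, whose product tags p53 for degradation, stood at 207 and 583 scaled FPKM in progesterone morphants, 58.7 and 165 in DMSO morphants and 16.6 and 17.1 in uninjected cells, a difference of 4.29 ± 0.64 (adjusted p = 0.0974). The levels of sesn3, a sestrin that dampens growth signalling, were 37.0 and 99.0 with progesterone, 7.96 and 35.7 in DMSO morphants and 1.90 and 1.61 in uninjected cells (4.49 ± 0.75). Cdkn1a, which stops the cell cycle, stood at 36.6 and 52.8 in progesterone morphants, 29.2 and 42.0 in DMSO morphants and 8.08 and 12.1 in uninjected cells (2.04 ± 0.33). In all 3 genes both morphant groups lay above uninjected cells, the morphant groups overlapped for cdkn1a and not for mdm2 and sesn3, and the library of experiment 2 was the higher one in both morphant groups.

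Within the p53 list the morpholino and progesterone differences had different shares. For cdkn1a the 2 morphant groups overlapped, and the progesterone difference within morphants was 0.32. Bbc3, a death effector, stood at 5.24 and 23.0 with progesterone, 2.99 and 9.50 in DMSO morphants and 0.342 and 0.9498 in uninjected cells. The caspase gene casp8 stood at 7.70 and 23.6 with progesterone, 3.28 and 12.7 in DMSO morphants and 0.560 and 1.36 in uninjected cells. In both death genes the library of experiment 2 was again the higher one of each morphant group. Sesn2, which is also an amino acid response gene, did not share this, with 21.7 and 22.3 scaled FPKM in progesterone morphants, 1.75 and 1.55 in DMSO morphants and 1.88 and 2.03 in uninjected cells. Its difference was 2.96 ± 0.30 (adjusted p = 0.0542) and its morpholino difference -0.16. Gadd45aa, a growth arrest gene, stood at 6.92 and 8.28 with progesterone, 1.64 and 4.71 in DMSO morphants and 0 and 0.294 in uninjected cells. Its relative gadd45ab was the 1 member separated lower, at 0.182 and 0.370 with progesterone, 1.21 and 0.986 in DMSO morphants and 4.30 and 3.17 in uninjected cells. Of the other members separated higher, ccng1, sesn1 and plk3 had differences of 2.64, 3.01 and 1.28. Relative to all genes the list's median was 1.23, and it was 1.59 with the progesterone library of experiment 1 left out and 1.12 with the other left out.

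The amino acid response, driven by the transcription factor Atf4, showed 16 of 40 members separated higher (2.51% of all genes were) and 0 lower (4.06%). Of the 40, 31 lay above the median of all genes and 9 below. The list's median difference was 0.88. At an unadjusted p under 0.05, 19 members were higher (7.28% of all genes were) and 0 lower (8.99%). Enzymes of serine, folate one-carbon and transsulfuration metabolism made up 7 of the 16, with 1 further enzyme, asparagine synthetase. Cbsb, which makes cystathionine from homocysteine, stood at 50.6 and 57.2 scaled FPKM in progesterone morphants, 8.88 and 7.74 in DMSO morphants and 8.93 and 8.66 in uninjected cells, a difference of 2.48 ± 0.23 that missed the threshold (limma adjusted p = 0.0501). The levels of shmt2, the mitochondrial serine hydroxymethyltransferase, were 51.8 and 50.8 with progesterone, 14.9 and 15.3 in DMSO morphants and 11.2 and 12.4 in uninjected cells (2.03 ± 0.21, adjusted p = 0.0542). Phgdh, the first enzyme of serine synthesis, stood at 85.4 and 74.0 with progesterone, 9.34 and 15.9 in DMSO morphants and 20.9 and 18.5 in uninjected cells (1.96 ± 0.30, adjusted p = 0.0974). The progesterone libraries of these 3 genes were close to each other and lay above all 4 DMSO libraries. Aldh1l2, psat1, mthfd1l and mthfd2, of the same pathways, had differences of 2.37, 2.05, 1.95 and 1.59, and asns, asparagine synthetase, 1.25.

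Amino acid transporters made up 6 of the other 8 separated members. SLC7A5 and slc3a2b encode the light and heavy chains of a carrier for large neutral amino acids. SLC7A5 stood at 14.5 and 7.89 scaled FPKM in progesterone morphants, 0.535 and 0.647 in DMSO morphants and 0.636 and 0.457 in uninjected cells (2.93 ± 0.42, adjusted p = 0.0973). Slc3a2b stood at 21.0 and 16.1 with progesterone, 2.00 and 1.28 in DMSO morphants and 2.55 and 1.63 in uninjected cells (2.66 ± 0.36, adjusted p = 0.0900). For both chains the progesterone libraries lay above all 4 DMSO libraries. Slc1a4, a neutral amino acid carrier, had 76.5 and 54.2 with progesterone, 4.203 and 9.53 in DMSO morphants and 10.5 and 8.77 in uninjected cells, and slc7a3a and 2 genes named slc1a5 had differences of 1.4967, 1.69 and 1.66. Si:ch211-160e1.5, for which RefSeq gives the synonym nupr1a, stood at 33.2 and 33.5 with progesterone, 18.8 and 34.7 in DMSO morphants and 3.09 and 4.49 in uninjected cells, and was the separated member in which the morpholino difference (2.49) exceeded the progesterone one (0.37).

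In the joint difference, the transcription factor genes atf4b2 and atf3 of that response did not share the direction of the list. Atf4b2, as the table names it, stood at 76.7 and 38.1 scaled FPKM in progesterone morphants, 48.5 and 33.0 in DMSO morphants and 67.1 and 71.6 in uninjected cells (-0.35 ± 0.38, adjusted p = 0.670). Atf3 stood at 218 and 291 with progesterone, 131 and 206 in DMSO morphants and 267 and 278 in uninjected cells (-0.11 ± 0.29, adjusted p = 0.872). Split in parts, atf4b2 and atf3 had the signs of the list. Their progesterone differences within morphants were 0.43 and 0.61, and their morpholino differences -0.78 and -0.72. For the list as a whole the progesterone difference within morphants was a median of 1.41 and the morpholino difference -0.36, and the joint median relative to all genes was 1.29 with the first progesterone library left out and 1.24 with the second left out. With no scaling 7 members were separated higher.

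Aminoacyl-tRNA synthetases, which load tRNAs with their amino acids, lay above the all-gene median in 21 of 22 members. The list's median difference was 0.96, with 7 members separated higher (2.51% of all genes were) and 0 lower (4.06%). At an unadjusted p under 0.05, 14 were higher (7.28% of all genes were) and 0 lower (8.99%). The asparaginyl enzyme nars stood at 89.0 and 87.9 scaled FPKM in progesterone morphants, 25.4 and 29.3 in DMSO morphants and 26.8 and 21.3 in uninjected cells (1.84 ± 0.22, adjusted p = 0.0747). Aars, for alanine, stood at 86.5 and 127 with progesterone, 31.1 and 35.2 in DMSO morphants and 35.8 and 38.0 in uninjected cells (1.48 ± 0.25). Yars, iars, farsa, WARS and dars had differences between 1.13 and 1.48. The exception was aimp1, a scaffold of the multi-synthetase complex rather than an enzyme, with 8.27 and 14.4 in progesterone morphants, 10.04 and 13.2 in DMSO morphants and 18.0 and 16.6 in uninjected cells. The separated count was 0 with no scaling, 1 with equal sums and 4 with quantile normalization, while the median relative to all genes stayed between 0.85 and 0.99 under these scalings (1.07 by size factors).

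Endoplasmic reticulum stress genes had a median difference of 0.79 over 26 members, 24 of them above the median of all genes. Manf, a secreted protein of this response, stood at 26.7 and 25.0 scaled FPKM in progesterone morphants, 7.55 and 6.33 in DMSO morphants and 7.02 and 9.28 in uninjected cells (1.56 ± 0.26, adjusted p = 0.109). Dnajb9b, a co-chaperone of the same compartment, stood at 11.3 and 13.3 with progesterone, 0.557 and 1.64 in DMSO morphants and 2.79 and 4.53 in uninjected cells (1.54 ± 0.41). These were the 2 members separated higher (2.51% of all genes were). Atf6, a sensor of the response, and the disulfide isomerase pdia4 followed with 1.40 and 1.32. Ppp1r15a, which restores translation, had a different profile, at 18.0 and 15.4 with progesterone, 19.4 and 20.4 in DMSO morphants and 8.98 and 8.55 in uninjected cells. Without the progesterone library of experiment 2 the list's median relative to all genes was 0.40, against 0.90 with it.

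Sterol synthesis and uptake genes were separated higher in 5 of 20 members (2.51% of all genes were) and lower in 0 (4.06%). Their median difference was 0.48, and 5 members lay below the median of all genes. Srebf2, the master regulator of sterol genes, stood at 26.5 and 29.9 scaled FPKM in progesterone morphants, 5.93 and 5.72 in DMSO morphants and 6.74 and 6.50 in uninjected cells (1.93 ± 0.24, adjusted p = 0.0812). Srebf1, its relative for fatty acid genes, stood at 12.2 and 17.1 with progesterone, 2.26 and 1.43 in DMSO morphants and 2.62 and 2.59 in uninjected cells (2.10 ± 0.35). For both genes the 4 DMSO libraries lay close together and the progesterone libraries above them. Dhcr7, the last enzyme of cholesterol synthesis, had 6.63 and 8.87 with progesterone, 1.46 and 3.07 in DMSO morphants and 1.4997 and 1.62 in uninjected cells. Insig1, which holds the sterol sensor in the endoplasmic reticulum, had 9.81 and 14.2 with progesterone, 1.84 and 5.85 in DMSO morphants and 4.06 and 2.47 in uninjected cells, and FDFT1 and the early enzyme hmgcs1 had differences of 1.65 and 1.77, the last without separation. Of the 13 fatty acid synthesis and desaturation genes, 0 were separated higher (2.51% of all genes were) and 1 lower (4.06%), acsl1a. It stood at 0.886 and 0.140 with progesterone, 0.942 and 0.893 in DMSO morphants and 3.54 and 4.17 in uninjected cells. Its difference was -1.72 and its morpholino difference -1.34.

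Further genes with the smallest p among those separated higher belonged to none of these lists. Wipi1, of autophagosome formation, stood at 12.99 and 18.7 scaled FPKM in progesterone morphants, 4.14 and 3.79 in DMSO morphants and 1.21 and 0.876 in uninjected cells (3.03 ± 0.34, adjusted p = 0.0616). Rnf169, which binds ubiquitin marks at DNA breaks, stood at 11.5 and 9.98 with progesterone, 4.69 and 6.69 in DMSO morphants and 1.18 and 1.24 in uninjected cells, with a morpholino difference of 1.58 and a progesterone one of 0.82. Phlda2, an imprinted growth gene in the mouse, had 19.8 and 33.8 with progesterone, 4.17 and 16.8 in DMSO morphants and 0.595 and 0.0602 in uninjected cells (4.37 ± 0.65, adjusted p = 0.0974). GRAMD2 (2 of 2) had a difference of 2.78. The glycolysis and hypoxia list of 26 genes, with a median of 0.11, held 3 separated higher (2.51% of all genes were) and 1 lower (4.06%). Those higher were gapdhs, slc2a1b and bnip3lb, of glycolysis, glucose uptake and the hypoxia response, with 1.44, 1.57 and 1.87. The lactate carrier slc16a3 was lower (-1.53).

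Among genes with the smallest p of those separated lower, several lay near 0 with progesterone. LRAT, named for an enzyme that stores retinol as esters, stood at 0 and 0.133 scaled FPKM in progesterone morphants, 7.30 and 4.96 in DMSO morphants and 7.59 and 9.87 in uninjected cells (-3.18 ± 0.37, adjusted p = 0.0656). Meis2a, a homeodomain regulator, stood at 0.278 and 0 with progesterone, 9.48 and 10.7 in DMSO morphants and 9.91 and 6.47 in uninjected cells (-3.00 ± 0.36, adjusted p = 0.0805). In both genes the 4 DMSO libraries lay well above the progesterone ones. CDPF1 and lrrc58b, whose differences were -2.62 and -1.95, had the same direction.

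**Figure D3:**
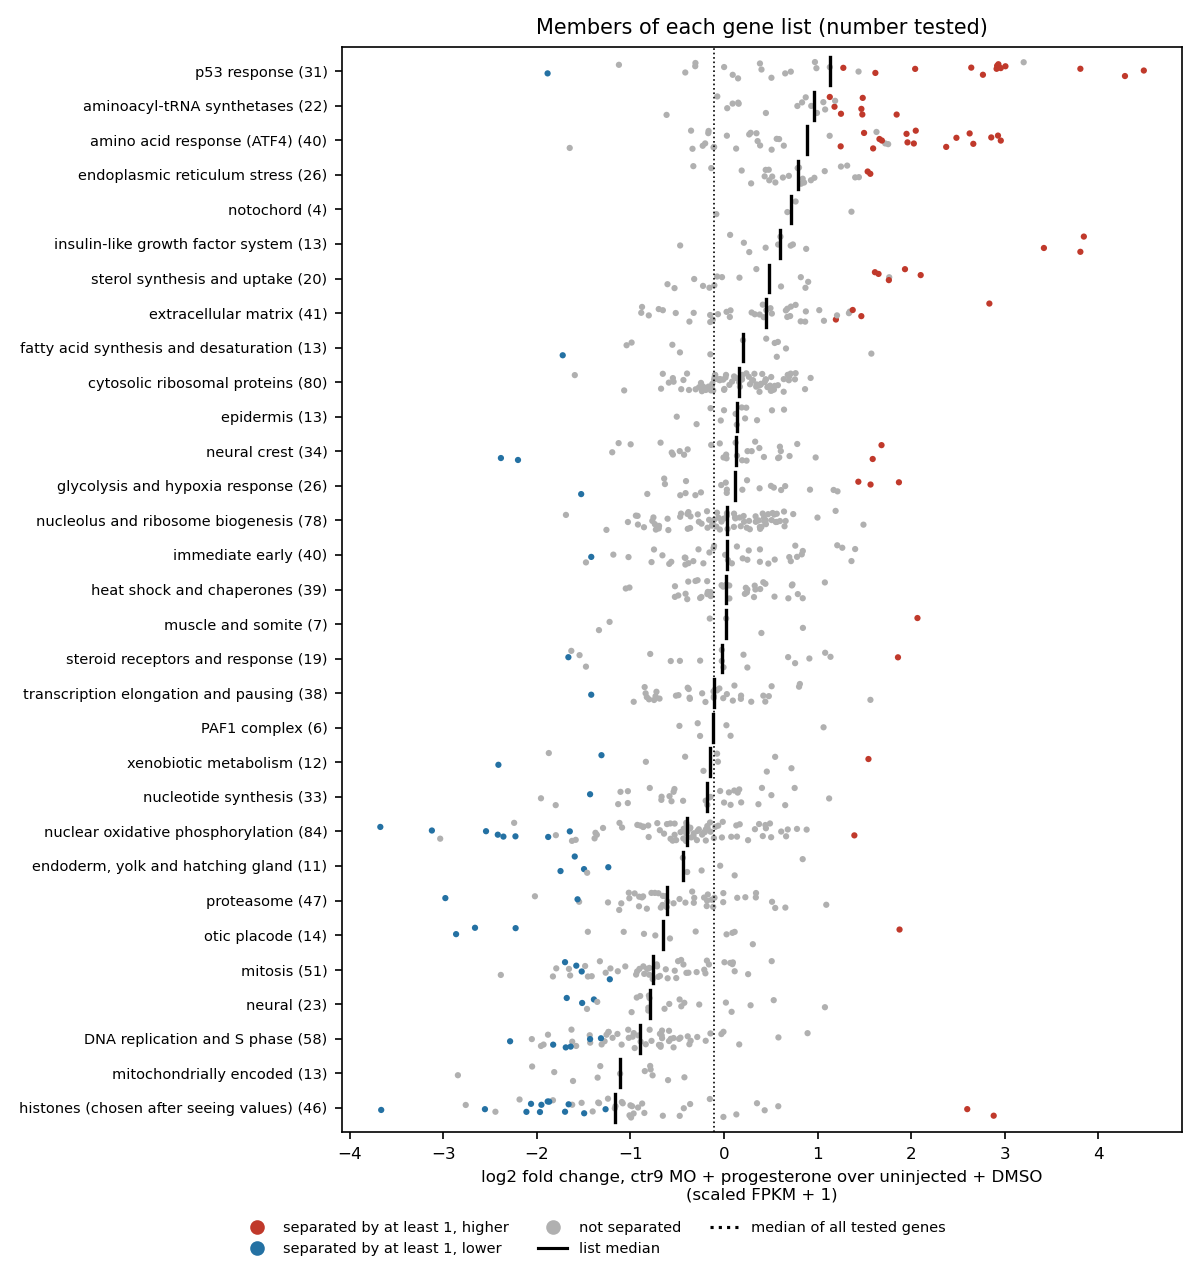
Log2 fold change (ctr9 MO + progesterone over uninjected + DMSO, horizontal axis) of each tested member of the gene lists, with the number tested in brackets. The blood and endothelial lists, with 1 and 2 tested genes, are left out. Members separated by at least 1 are red (higher) or blue (lower), and the list median is a bar. The dotted line is the median of all tested genes at -0.10; the p53, tRNA synthetase and amino acid lists lie to its right, and the S phase, mitosis, neural and histone lists to its left.

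Proliferation genes lay below other genes. Of 51 mitosis genes, 44 were below the median of all genes, and the list's median difference was -0.76. Separated lower were 4 of them, against 4.06% of all genes, and 0 were separated higher. At an unadjusted p under 0.05, 23 were lower, against 8.99% of all genes, and 0 higher. Plk1, a kinase that drives entry into and passage through mitosis, stood at 95.5 and 69.4 scaled FPKM in progesterone morphants, 241 and 208 in DMSO morphants and 217 and 255 in uninjected cells (-1.52 ± 0.24, adjusted p = 0.109). Mad2l1, of the spindle checkpoint, stood at 10.6 and 4.59 with progesterone, 32.4 and 29.3 in DMSO morphants and 27.9 and 22.8 in uninjected cells (-1.70 ± 0.38). Casc5 of the kinetochore and the spindle protein hmmr were the other 2 separated members, with -1.58 and -1.22. The proliferation marker mki67 (-1.21) and the cyclins ccna2 (-1.33) and ccnb1 (-0.94) had non-overlapping groups without reaching separation. Of all genes tested, 3595 (27.3%) were lower without overlap. MZT1, a gamma-tubulin complex protein outside the list, was listed at 0 in both progesterone libraries, at 2.77 and 3.93 in DMSO morphants and at 6.16 and 4.53 in uninjected cells.

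Genes of DNA replication and S phase had the lower median, -0.90 over 58 members, with 53 below the median of all genes. Of the 58, 6 were separated lower (4.06% of all genes were) and 0 higher. LIG1, the ligase that joins Okazaki fragments, stood at 10.02 and 7.81 scaled FPKM in progesterone morphants, 24.0 and 22.4 in DMSO morphants and 28.4 and 31.0 in uninjected cells (-1.64 ± 0.23, adjusted p = 0.0973). A gene named rrm2, the small subunit of ribonucleotide reductase, stood at 29.9 and 20.7 with progesterone, 79.3 and 68.5 in DMSO morphants and 68.9 and 68.8 in uninjected cells (-1.43 ± 0.25), and a second gene of that name at 80.7 and 59.7 with progesterone, 102 and 91.9 in DMSO morphants and 106 and 97.2 in uninjected cells (-0.54 ± 0.23). Reads could be split between the 2 entries. The clamp loader subunits rfc1 and rfc5, the polymerase subunit pold2 and the origin protein ORC2 were the other separated members, with -2.29, -1.32, -1.69 and -1.83, and the flap nuclease fen1 had -1.19. Of 2 entries the table names mcm5, one keeps that name, a helicase subunit, in the current name table, and stood at 28.9 and 26.2 in progesterone morphants, 47.0 and 32.6 in DMSO morphants and 45.4 and 44.1 in uninjected cells. The other, which counts in the list by its deposited name, is hsp70.1, a heat shock gene, in the current name table, and stood at 459 and 931 in progesterone morphants, 239 and 523 in DMSO morphants and 424 and 449 in uninjected cells. The list's median relative to all genes was -0.41 without the progesterone library of experiment 2, against -0.80 with it.

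Nucleotide synthesis genes as a whole stayed near other genes. Their median difference was -0.18 over 33 members. Of the 33, 0 were separated higher (2.51% of all genes were) and 1 lower (4.06%), rrm2, which the S phase list also holds. Umps, the last enzyme of pyrimidine synthesis, stood at 15.3 and 16.4 scaled FPKM in progesterone morphants, 30.1 and 26.6 in DMSO morphants and 25.2 and 26.5 in uninjected cells (-0.67 ± 0.21). The purine enzymes gart and pfas had differences of 0.75 ± 0.26 and 1.12 ± 0.45, in the other direction, and the 3 adjusted p-values lay between 0.232 and 0.305. Rrm1, the large reductase subunit, differed between the progesterone libraries, at 22.0 and 4.64 with progesterone, 39.7 and 36.0 in DMSO morphants and 47.6 and 39.2 in uninjected cells. Without the progesterone library of experiment 2 the list's median relative to all genes was 0.03, against -0.08 with it.

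Lists of cell identity differed in direction. In bulk libraries, fewer cells of a type and less RNA per cell cannot be told apart. Of 34 neural crest genes, 2 were separated higher (2.51% of all genes were) and 2 lower (4.06%), and the list's median was 0.13. Sox9b, a crest and cartilage regulator, stood at 37.4 and 22.5 scaled FPKM in progesterone morphants, 10.7 and 9.63 in DMSO morphants and 8.79 and 7.95 in uninjected cells (1.68 ± 0.31, adjusted p = 0.130). Snai1b, which promotes delamination, stood at 324 and 174 with progesterone, 53.4 and 94.4 in DMSO morphants and 78.6 and 78.0 in uninjected cells (1.59 ± 0.40). Pax7b and pax7a, of crest and pigment precursors, lay on the other side: pax7b had 2.57 and 4.52 with progesterone, 5.58 and 1.98 in DMSO morphants and 17.1 and 28.7 in uninjected cells, and pax7a had 3.21 and 0 with progesterone, 2.63 and 0.534 in DMSO morphants and 7.501 and 9.49 in uninjected cells. For the 2 pax7 genes both morphant groups lay below uninjected cells and overlapped each other, with progesterone differences within morphants of 0.0036 and -0.20. Trpm1b, a channel gene of the pigment lineage, stood at 1.07 and 0.943 with progesterone, 0.742 and 0.162 in DMSO morphants and 10.1 and 9.82 in uninjected cells. Both morphant groups lay below uninjected cells here too, and the progesterone libraries lay above the DMSO morphant ones (0.50 within morphants). Cdh7 (0.98), cdh6 (-0.68) and the neuregulin receptor gene erbb3b (-1.13) were not separated.

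Otic placode genes were separated lower in 3 of 14 members (4.06% of all genes were) and higher in 1 (2.51%), with a median of -0.66. Relative to all genes that median was -0.55, and 0.09 when a mean of at least 5 FPKM was required. Stm, the otolith protein starmaker, stood at 0.943 and 0.653 scaled FPKM in progesterone morphants, 5.85 and 7.32 in DMSO morphants and 12.2 and 8.71 in uninjected cells (-2.66 ± 0.34, adjusted p = 0.0840). Dlx3b, an early otic regulator, was listed at 0 in both progesterone libraries, and stood at 5.53 and 2.18 in DMSO morphants and 5.92 and 6.65 in uninjected cells. Tbx2b stood at 0.729 and 0.0693 with progesterone, 1.41 and 0.787 in DMSO morphants and 4.89 and 5.88 in uninjected cells. Oc90, a second otolith protein, differed from stm: it had 18.0 and 21.9 with progesterone, 5.71 and 4.59 in DMSO morphants and 20.3 and 16.5 in uninjected cells, and the progesterone range overlapped the uninjected one. Foxi1, the member separated higher, had 1.70 and 3.995 in progesterone morphants, 1.31 and 5.84 in DMSO morphants and was listed at 0 in both uninjected libraries.

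Neural genes lay below the median of all genes in 18 of 23 members, with a median of -0.80. Of the 23, 3 were separated lower (4.06% of all genes were) and 0 higher. The tubulin gene tubb5 stood at 6.59 and 7.93 scaled FPKM in progesterone morphants, 35.6 and 29.2 in DMSO morphants and 22.6 and 28.5 in uninjected cells (-1.68 ± 0.25, adjusted p = 0.0974). Elavl3, an RNA-binding protein of new neurons, stood at 7.61 and 7.34 with progesterone, 30.5 and 28.6 in DMSO morphants and 10.7 and 20.2 in uninjected cells, and tuba1a at 16.5 and 19.7 with progesterone, 58.6 and 54.0 in DMSO morphants and 28.5 and 26.7 in uninjected cells. In all 3 genes DMSO morphants were the highest group by their mean, and the progesterone differences within morphants were -2.01, -1.85 and -1.59. Elavl4 and neurog1, low genes and the other 2 separated members, were listed at 0 in both progesterone libraries. Nova2, which the current name table calls NOVA1, lay on the other side, at 27.5 and 55.3 with progesterone, 29.8 and 40.0 in DMSO morphants and 20.8 and 15.5 in uninjected cells. With quantile normalization 1 neural gene was separated lower and with no scaling 7.

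Among lists that mark other cell types, epidermal genes had a median of 0.14 over 13 members. Of the 13, 0 were separated higher (2.51% of all genes were) and 0 lower (4.06%). Relative to all genes the epidermal median was 0.24, and leaving out a progesterone library gave 0.49 (experiment 1 left out) or -0.29 (experiment 2 left out). The 4 notochord genes had a median of 0.72, 0.82 relative to all genes, with 1.40 (experiment 1 left out) or 0.42 (experiment 2 left out) in the same way. The notochord medians of the other 2 differences were -0.50 for progesterone within morphants and 1.12 for DMSO morphants against uninjected cells. The level for testing was reached by 7 of 28 muscle genes, 1 of 18 blood genes and 2 of 12 endothelial genes. The 8 muscle markers in the table, myod1, myf5 and myog among them, summed to 2.04 and 1.09 scaled FPKM in progesterone morphants, 3.10 and 2.97 in DMSO morphants and 1.71 and 2.08 in uninjected cells, and 7 of the 8 were under 1 in all libraries. The 6 blood markers summed to 0.172 and 0.208 in progesterone morphants, 1.44 and 0.574 in DMSO morphants and 1.34 and 1.65 in uninjected cells. Sox17, sox32 and foxa2, which define endoderm, were listed at 0 in all 6 libraries. The endoderm, yolk and hatching gland list held 4 of 11 members separated lower (4.06% of all genes were) and 0 higher. Its median relative to all genes was -0.34, and it was -1.10 without the progesterone library of experiment 1 and 0.077 with quantile normalization, where 2 members were separated lower. Its apolipoprotein gene apoeb stood at 8.95 and 5.12 in progesterone morphants, 64.4 and 61.0 in DMSO morphants and 24.1 and 21.2 in uninjected cells (-1.60 ± 0.29, adjusted p = 0.131), low in the first group and high in the second. Apoc1l, a second apolipoprotein, was listed at 0 in both progesterone libraries, at 2.74 and 3.94 in DMSO morphants and at 2.37 and 2.34 in uninjected cells. The hatching enzyme gene he1a stood at 0.315 and 0 with progesterone, 2.79 and 1.59 in DMSO morphants and 2.58 and 1.93 in uninjected cells, and he1b was listed at 0 in both progesterone libraries, at 1.85 and 2.09 in DMSO morphants and at 1.70 and 1.06 in uninjected cells. Levels were also summed over the 13 entries of a shorter marker set. These marker sums were 17.7 and 6.92 scaled FPKM in progesterone morphants, 79.6 and 88.4 in DMSO morphants and 45.3 and 33.8 in uninjected cells. Apoeb made up most of the marker sum in DMSO morphants. Over all 28 entries of the list the sums were 82.2 and 122 with progesterone, 117 and 142 in DMSO morphants and 100 and 80.2 in uninjected cells. The whole-list sums thus overlapped between progesterone morphants and uninjected cells. The part of such cells in any result was not tested.

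Extracellular matrix genes were separated higher in 4 of 41 members (2.51% of all genes were) and lower in 0, with a median of 0.45. Mmp2, a matrix protease, stood at 36.4 and 79.7 scaled FPKM in progesterone morphants, 19.7 and 38.7 in DMSO morphants and 5.77 and 7.74 in uninjected cells (2.84 ± 0.48, adjusted p = 0.109). Col15a1b, a basement membrane collagen, stood at 186 and 193 with progesterone, 83.2 and 94.6 in DMSO morphants and 83.4 and 81.1 in uninjected cells (1.1955 ± 0.19). The laminin chains lamb1a (2 genes of that name, 1.47 and 1.38) and lama1 (1.21) shared this, whereas tenascin, tnc, had 15.1 and 29.1 with progesterone, 13.7 and 11.7 in DMSO morphants and 33.0 and 36.5 in uninjected cells. Without the progesterone library of experiment 2 the list's median relative to all genes was 0.16, against 0.56 with it.

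Genes of the proteasome, which degrades tagged proteins, had a median difference of -0.61. Of 47 proteasome genes 36 were below the median of all genes, 2 were separated lower (4.06% of all genes were) and 0 higher. Pomp, the assembly factor of the core particle, stood at 10.2 and 15.2 scaled FPKM in progesterone morphants, 34.0 and 51.1 in DMSO morphants and 38.4 and 39.4 in uninjected cells (-1.57 ± 0.30, adjusted p = 0.139). Psma4, a core subunit, was listed at 0 in 1 progesterone library and stood at 9.71 in the other, against 26.8 and 22.9 in uninjected cells. The subunits psmb4, psmd8, psmd12 and psmc3 had differences between -0.91 and -0.78, and the assembly factor psmg2 had 1.09 in the other direction. With no scaling 14 proteasome genes were separated lower, and so were 1203 of the 13145 genes tested.

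Nuclear genes of oxidative phosphorylation had a median of -0.40 over 84 members. Separated lower were 8 (4.06% of all genes were), and 1, ATP5J (4 of 4), was separated higher (1.39). Of the 84, 18 were listed at 0 in a progesterone library, and 1 was listed at 0 in an uninjected library. Cox6c stood at 8.37 and 5.89 scaled FPKM in DMSO morphants and 8.29 and 7.16 in uninjected cells, beside its zeros with progesterone. The complex I genes ndufb11, ndufa1 and NDUFC2 and the ATP synthase gene atp5ia were also listed at 0 in both progesterone libraries. Among members above 0 in all libraries, ndufs3 had 3.13 and 1.85 with progesterone, 9.89 and 5.47 in DMSO morphants and 11.5 and 8.23 in uninjected cells, and cox4i1 had 34.4 and 28.8 with progesterone, 82.4 and 75.8 in DMSO morphants and 61.8 and 54.4 in uninjected cells. Prdx3, the mitochondrial peroxiredoxin outside the list, stood at 5.75 and 5.63 with progesterone, 18.0 and 16.2 in DMSO morphants and 21.9 and 18.4 in uninjected cells (-1.66 ± 0.24, adjusted p = 0.0973).

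The 13 mitochondrially encoded genes all lay below the median of all genes, at a median of -1.11, and all 13 were lower in the progesterone library of experiment 2 than in that of experiment 1. Without the progesterone library of experiment 2 their median relative to all genes was -0.20, against -1.01 with it and -1.69 without that of experiment 1. Mt-atp8 stood at 303 and 10.8 scaled FPKM in progesterone morphants, 326 and 504 in DMSO morphants and 441 and 418 in uninjected cells. Mt-nd4l was close between the progesterone libraries, at 45.6 and 43.0 with progesterone, 88.6 and 97.4 in DMSO morphants and 111 and 84.3 in uninjected cells (-1.11 ± 0.22).

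The RNA of ctr9 itself, the morpholino's target, was not lower in morphants. Ctr9 stood at 28.0 and 35.5 scaled FPKM in progesterone morphants, 33.9 and 33.5 in DMSO morphants and 14.0 and 15.2 in uninjected cells, higher in both morphant groups than in uninjected cells without overlap (1.06 ± 0.22, adjusted p = 0.149). It did not meet the separated rule. Of all genes tested, 2761 (21.0%) were higher without overlap in progesterone morphants. A morpholino need not lower the RNA of its target, so the ctr9 level checks no label. The other PAF1 complex genes leo1, cdc73, rtf1, wdr61 and paf1 had differences between -0.48 and 0.07, the last with 4.197 and 35.0 in the progesterone libraries and 9.73 and 14.8 in uninjected cells. The 38 elongation and pausing genes had a median of -0.11, against -0.10 for all genes. Of these 38, 1 was separated lower (4.06% of all genes were) and 0 higher (2.51%). That gene was elof1, an elongation factor, at 5.22 and 4.28 with progesterone, 13.9 and 8.74 in DMSO morphants and 12.8 and 15.97 in uninjected cells. Polr2a, the large subunit of RNA polymerase II, stood at 17.8 and 19.2 with progesterone, 41.6 and 52.4 in DMSO morphants and 32.5 and 33.4 in uninjected cells, and brd3a had a difference of -0.97. Ddx21, the nucleolar RNA helicase of the series title, had 106 and 105 with progesterone, 60.6 and 86.3 in DMSO morphants and 68.7 and 78.9 in uninjected cells (0.51 ± 0.24, adjusted p = 0.365).

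Nucleolar, ribosome biogenesis and ribosomal protein genes stayed close to other genes as lists. The 78 nucleolus and ribosome biogenesis genes had a median of 0.03 with 0 separated in either direction, and the 80 cytosolic ribosomal protein genes a median of 0.16 with 0 separated. Of all genes, 2.51% were separated higher and 4.06% lower. Relative to all genes, the median of the first list was -0.07 at the lowest under the other scalings and that of the second -0.14 with quantile normalization, against 0.14 and 0.27 by size factors. Ddx47, a helicase of ribosome assembly, stood at 56.6 and 69.5 scaled FPKM in progesterone morphants, 25.7 and 22.2 in DMSO morphants and 30.2 and 23.9 in uninjected cells (1.19 ± 0.24), while ubtf, a factor of RNA polymerase I, had 9.92 and 7.98 with progesterone, 16.2 and 11.7 in DMSO morphants and 17.4 and 18.1 in uninjected cells (-0.92 ± 0.27).

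The steroid receptor list holds receptors and genes written down as responsive to corticoids or progestins. It had a median of -0.02 over 19 members, and its sign relative to all genes turned in 4 of 13 alternatives. Of the 19, 1 was separated higher (2.51% of all genes were) and 1 lower (4.06%). Whether each member, pck2 among them, responds to these hormones in zebrafish was not tested. The member separated higher was pck2, at 3.97 and 2.63 scaled FPKM in progesterone morphants, 0.513 and 0.736 in DMSO morphants and 0 and 0.369 in uninjected cells. Tsc22d3, a glucocorticoid-induced gene in mammals, was the member separated lower, at 0 and 0.0842 with progesterone, 2.33 and 1.79 in DMSO morphants and 2.53 and 2.08 in uninjected cells. Fkbp5, a chaperone of steroid receptors and one of their targets, stood at 3.74 and 2.26 with progesterone, 0.551 and 1.53 in DMSO morphants and 1.23 and 0.959 in uninjected cells (0.91 ± 0.45, adjusted p = 0.379). The clock gene per1b had 4.28 and 2.08 with progesterone, 4.48 and 2.05 in DMSO morphants and 0.755 and 0.916 in uninjected cells, and so was above uninjected cells in both morphant groups. Sgk1, a kinase gene, had 1.72 and 10.2 with progesterone, 12.3 and 22.8 in DMSO morphants and 17.3 and 14.9 in uninjected cells. The glucocorticoid receptor gene nr3c1 had a difference of 0.76 ± 0.35 and the membrane progesterone receptor component pgrmc1 one of -0.79 ± 0.28. None of these 7 genes passed over all genes, with adjusted p-values between 0.166 and 0.379.

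General stress genes lay near other genes as lists. The 39 heat shock and chaperone genes had a median of 0.02 with 0 separated, among them bag3 (1.08) and hspb1 (0.84). The 40 immediate early genes had a median of 0.03, with 0 separated higher (2.51% of all genes were) and 1 lower (4.06%). The lower one, FOS (2 of 3), stood at 9.20 and 8.20 scaled FPKM in progesterone morphants, 11.1 and 18.2 in DMSO morphants and 22.1 and 28.0 in uninjected cells. Both lists changed sign relative to all genes with quantile normalization, the heat shock list also with no scaling and without the progesterone library of experiment 2. Of 12 xenobiotic metabolism genes 1 was separated higher (2.51% of all genes were) and 2 lower (4.06%). The higher one was gclm, of glutathione synthesis, at 17.7 and 19.6 with progesterone, 6.05 and 9.02 in DMSO morphants and 6.54 and 5.03 in uninjected cells. The lower ones were gstp1 (-2.41) and nqo1, which was listed at 0 in both progesterone libraries.

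The joint difference is the sum of the progesterone difference within morphants and the morpholino difference in DMSO. In the progesterone contrast within morphants limma called 1 gene higher (0.00761%), igfbp1a (4.97 ± 0.30, adjusted p = 0.0439), and 0 lower (0.0%). In the morpholino contrast it called 0 higher (0.0%) and 2 lower (0.0152%). At an unadjusted p under 0.05 the first contrast had 953 genes higher (7.25%) and 1277 lower (9.71%), and the second 234 higher (1.78%) and 314 lower (2.39%). The 3 differences share libraries and add up gene by gene, so they are given side by side and not as independent evidence. The amino acid list had medians of 0.88 jointly, 1.41 for progesterone within morphants and -0.36 for the morpholino in DMSO, and the endoplasmic reticulum list 0.79, 1.05 and -0.20. For the p53 list the values were 1.13, 0.75 and 0.42. The neural list had -0.80, -1.22 and 0.44. The S phase list had -0.90, -0.77 and -0.17, and mitosis -0.76, -0.84 and 0.04. Over the 330 genes separated higher the medians were 1.86, 1.45 and 0.43, and over the 534 separated lower -1.74, -1.44 and -0.37, both sets having been chosen on the joint difference.

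**Figure D4:**
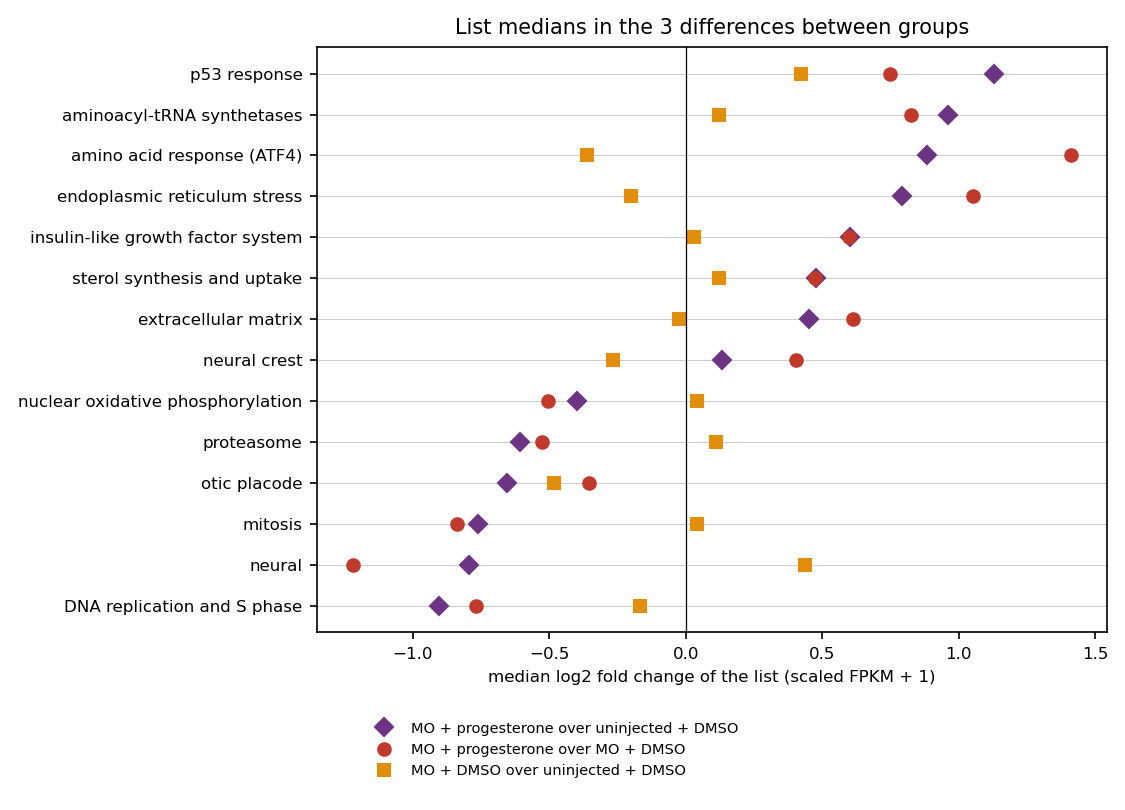
Median log2 fold change (scaled FPKM + 1, horizontal axis) of 14 gene lists in 3 differences: ctr9 MO + progesterone over uninjected + DMSO (diamonds), ctr9 MO + progesterone over ctr9 MO + DMSO (circles) and ctr9 MO + DMSO over uninjected + DMSO (squares). Squares lie within 0.50 of 0 in all 14 lists, and the square lies on the other side of 0 from the diamond in 8 lists, amino acid response, endoplasmic reticulum stress, extracellular matrix, neural crest, mitosis, proteasome, nuclear oxidative phosphorylation and neural.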

How the data were processed

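RNA from sox10-sorted zebrafish cells was sequenced in 7 labelled samples, and 6 columns of 1 deposited table were used. The table holds FPKM per gene, computed by the authors, and the deposited values carry no fragment counts, so depth is unknown. Per the submitters' processing notes, cutadapt, TopHat2 2.0.11, Cufflinks 2.2.1 and the builds Zv9 and hg19 were named; the gene annotation, strand setting and counting of multi-mapped reads are not stated in the sources used here. From 33827 entries, 92 ERCC spike-ins and 1 repeated header row were left out, and 21937 of 33735 genes were matched to current names.

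Each library was divided by a median-ratio size factor from 10865 genes above 0 in all libraries. These were 0.934 and 0.582 in progesterone morphants, 1.25 and 1.09 in DMSO morphants and 1.20 and 1.31 in uninjected cells. Genes with a mean of at least 1 FPKM were tested on log2(scaled FPKM + 1) with limma 3.58.1 in R 4.3.3, in 1 fit of 3 groups with 3 residual degrees of freedom and a trended prior of 2.933 further ones, and p-values were adjusted by the Benjamini-Hochberg method over all tested genes. The fit was tested on simulated data in which a gene had the same spread in every library. Weights fitted to the real libraries were 0.301 in progesterone morphants, 1.225 in DMSO morphants and 2.715 in uninjected cells. The simulation therefore cannot show how the fit behaves under such unequal spread. Scaling, pseudocount, filters, the libraries fitted, weights and each library left out were varied.

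Genes were named by a rule: called genes and, to fill up, separated genes by smallest p, then the PAF1 complex, and up to 5 members of each list in each direction by smallest p. Of 178 genes followed through the alternatives, 30 fall outside this rule and were chosen after their values were seen. Cell type markers named by their levels alone, such as foxd3, tfap2a and ednrab, are not among the 178. The members and lists were chosen with earlier results of these data known, and 1 list member is not reported here by itself.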

Additional observations from a re-analysis of the deposited data

How the results depend on the processing

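Counts of genes past a threshold varied with most choices. The 6 genes called higher became 0 with no scaling, 2 with equal sums, 17 with quantile normalization, 10 with a pseudocount of 0.1, 15 with a pseudocount of 5, 0 with no filter on low values, 15 with a mean of at least 5 FPKM, 0 without small non-coding RNA genes, 0 with only the 4 libraries compared, 0 without a trend and 6 with library weights. The 3 called lower became 7 with quantile normalization, 8 with a pseudocount of 0.1, 1 with no filter, and 0 without small non-coding RNA genes or with only the 4 libraries, where 760 genes were higher and 1045 lower at an unadjusted p under 0.05. Leaving out 1 library gave between 0 and 953 genes called higher and between 0 and 1422 called lower, and between 462 and 1519 separated higher and between 826 and 2555 separated lower. Separated counts, 330 higher and 534 lower, became 125 and 1203 with no scaling, 173 and 887 with equal sums, 361 and 325 with quantile normalization, 497 and 959 with a pseudocount of 0.1, 154 and 100 with a pseudocount of 5, and 203 and 191 with a mean of at least 5 FPKM. The cause of these shifts was not tested, except that fewer genes were tested under the stricter filters (6603 with a mean of at least 5 FPKM).

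Among the 178 genes followed, 2417 of 2629 values over 15 alternatives kept their direction and side of the threshold. A further 131 newly passed, 58 no longer passed and 23 reversed. Most genes that newly passed did so in 1 alternative only. The fit without the progesterone library of experiment 1, which left 1 library in that group, called the most genes. Only the 9 genes called with all libraries could stop passing, so all 58 losses fall on them. Each of the 9 passed in between 6 of 15 alternatives (si:ch211-8i17.2) and 11 of 14 (a U6 copy). Most values that kept their side belong to genes that passed neither with all libraries nor in the alternative. Sox10 went to -0.38 with no scaling, -0.026 with equal sums, and lay between -0.12 and 0.87 with 1 library left out. Paf1 went to -0.65 with no scaling, -0.30 with equal sums, -0.057 with quantile normalization, and lay between -1.35 and 1.46 with 1 library left out. Under the same 3 scalings wdr61 went to -0.67, -0.35 and -0.091, and lay between -0.14 and 0.18 with 1 library left out. The value of oc90 was -0.62, -0.27 and -0.0023 under the 3 scalings and lay between -0.035 and 0.25 with 1 library left out. Ddx21 (-0.25) and the entry named mcm5 that the current name table calls hsp70.1 (-0.19) reversed with no scaling, and with 1 library left out cdc73 lay between -1.01 and 0.039, atf4b2 between -0.86 and 0.14 and atf3 between -0.32 and 0.084. Of 402 list medians relative to all genes, 301 moved by less than the spread between libraries and 101 by more. The p53, amino acid, tRNA synthetase, endoplasmic reticulum, sterol, insulin-like growth factor, extracellular matrix, mitosis, S phase, neural, proteasome and nuclear oxidative phosphorylation lists kept their side of the all-gene median in 13 of 13 alternatives. No paired analysis was possible against uninjected cells because their columns carry no experiment number. The 2 morphant groups share experiment numbers 1 and 2, and deviations from the group means correlated with r = 0.0752 across genes. For progesterone within morphants, the 1 gene called higher, igfbp1a, and 0 lower over 3 groups became 0 and 0 with only the 4 morphant libraries, both without and with the experiment number as a block. An alternative chosen after seeing the data, the block left 1 residual degree of freedom, and at an unadjusted p under 0.05 it gave 553 genes higher and 783 lower, against 574 and 846 without the block.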

Other observations

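Histone genes, a list drawn up after the values were seen and given no test, were mostly lower in progesterone morphants. Of 46 tested, 12 were separated lower (4.06% of all genes were) and 2 higher (2.51%), and 39 lay below the median of all genes. The median difference was -1.16, with -0.63 for progesterone within morphants and -0.43 for the morpholino in DMSO. HIST2H3D, a histone H3 gene, stood at 32.0 and 46.5 scaled FPKM in progesterone morphants, 119 and 94.2 in DMSO morphants and 160.4 and 144 in uninjected cells. H2AFY (3 of 16), which the name table calls hist1h2a4, was listed at 0 in both progesterone libraries, at 6.51 and 3.52 in DMSO morphants and at 11.5 and 11.8 in uninjected cells, and H2AFY (9 of 16) stood at 48.3 and 37.2 with progesterone, 113 and 93.9 in DMSO morphants and 134 and 146 in uninjected cells. Both members separated higher were linker histones of the H1 family. Histh1l stood at 105 and 221 with progesterone, 25.5 and 18.2 in DMSO morphants and 22.2 and 17.6 in uninjected cells (2.88 ± 0.40), and h1f0, a linker histone of non-dividing cells in mammals, at 31.8 and 12.6 with progesterone, 4.91 and 2.12 in DMSO morphants and 3.11 and 1.96 in uninjected cells (2.5996 ± 0.55). Many histone genes are near-identical copies between which reads could be split, so single members are uncertain.

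Further single genes of other lists follow. Fli1a, a vascular and crest factor, stood at 13.7 and 5.33 scaled FPKM in progesterone morphants, 28.3 and 20.5 in DMSO morphants and 37.7 and 45.2 in uninjected cells (-2.13 ± 0.44, limma adjusted p = 0.145). Etv2, which starts the vascular programme, was listed at 0 in all 4 morphant libraries and at 1.61 and 1.88 in uninjected cells. The vascular genes kdrl, cdh5, tie1 and lmo2 were under 1 in all 6 libraries and lower with progesterone than in uninjected cells. The other tested gene of the endothelial list had a difference of 0.47. Acta1a, a muscle actin, stood at 15.2 and 22.6 with progesterone, 4.03 and 2.85 in DMSO morphants and 4.94 and 2.66 in uninjected cells (2.07 ± 0.39), while mef2ca, a muscle and crest factor, had 21.0 and 41.6 with progesterone, 49.6 and 39.6 in DMSO morphants and 82.1 and 71.0 in uninjected cells. Among immediate early genes, cyr61 stood at 23.3 and 18.4 with progesterone, 11.6 and 7.89 in DMSO morphants and 8.84 and 7.95 in uninjected cells and egr2a at 37.4 and 42.9 with progesterone, 22.3 and 21.2 in DMSO morphants and 22.8 and 23.6 in uninjected cells, with fosl2 on the other side (-1.48). Small non-coding RNA genes made up 74 of the 330 genes separated higher and 20 of the 534 separated lower.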
